A study of Saccharomyces cerevisiae with 6 samples.

Results

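The genes described are those named as proteins of the mitochondrial ribosome of the yeast Saccharomyces cerevisiae. They were chosen by name: every ORF whose symbol is MRPL, MRPS, MRP or RSM followed directly by a number. The choice was made with earlier results of these data known. MRP8 and RSM22 are among them, although the gene table used here gives them no ribosomal protein name. The rule gave 67 of the 6174 ORFs in the data, of which 34 were MRPL genes, 9 MRPS genes, 11 RSM genes and 13 MRP genes, and all 67 had a value on every array.

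RNA of strain tetYFH1 was measured on 4 arrays and RNA of strain W303-1A on 2. tetYFH1 is strain BQS201, which is W303-1A with the allele tetO7-YFH1::kanMX4, so that doxycycline lowers expression of YFH1, the gene for the mitochondrial iron protein frataxin. W303-1A, called W303 from here on, carries no such allele and served as the control for the drug. In both strains cells exposed to 2 µg/ml doxycycline for 10 h were compared with untreated cells of the same strain, all in YPG rich medium at 30 °C. The untreated cells are labelled 0 h, so drug and elapsed time cannot be told apart within a strain, and the promoter insertion is present in treated and untreated tetYFH1 cells alike.

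The mitochondrial ribosome translates the few mRNAs encoded in mitochondrial DNA, most of which give core subunits of the respiratory chain and of the ATP synthase. Its RNA is made inside the organelle, whereas nearly all of its proteins are encoded in the nucleus, made in the cytosol and imported. MRPL genes encode proteins of the large subunit, where the peptide bond is formed, and MRPS and RSM genes encode proteins of the small subunit, which reads the mRNA. The name MRP was given without regard to subunit. Some of the proteins have relatives in all ribosomes, some in bacterial ribosomes, and some occur in mitochondria alone. Sequences of the genes, of their promoters and of the proteins were not used here.

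Each array gave 1 value per ORF, the log2 ratio of treated over untreated RNA, in which 1 is a 2-fold higher level and 0 no difference. The arrays form 3 pairs with exchanged dyes, called A (arrays A1 and A2) and B (B1 and B2) for tetYFH1 and W (W1 and W2) for W303. The first array of each pair had the treated RNA in Cy5. Equal amounts of total RNA were labelled, so a ratio describes a share of RNA, and fewer expressing cells and less RNA per cell cannot be told apart. YFH1 itself was at −2.64, −3.29, −5.38 and −5.11 on A1, A2, B1 and B2 and at −0.08 and −0.05 on W1 and W2. Its mean in tetYFH1 was −4.11 ± 1.61 (SD, n = 2 pairs; adjusted p = 0.0178, limma). With arrays centred on their medians, or without A2, B1 or B2, 0 ORFs passed, YFH1 included. Pair B gave values beyond those of pair A for YFH1. Pair B also held many exact whole numbers, 33 of the 67 genes having 1 on B1 or B2, against 3223 of all ORFs. The direction of the W303 ratios rests on the labels alone.

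Most of the mitochondrial ribosomal protein genes had ratios above 0 in both strains, by small amounts. Their median ratio was 0.24 in tetYFH1, which is 1.18-fold, and 0.40 in W303, which is 1.32-fold. The median of all ORFs was 0.11 in tetYFH1 and 0.05 in W303. With every array centred on its own median over all ORFs, the medians of the genes were 0.17 in tetYFH1 and 0.36 in W303. The mean ratio was above 0 for 61 of 67 genes (91.0%) in tetYFH1, against 65.8% of all ORFs, and for 65 of 67 (97.0%) in W303, against 57.1%.

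No single gene of the 67 passed the test in either strain. limma was fitted to the 3 pair means over all ORFs, with p-values adjusted by the method of Benjamini and Hochberg and a threshold of 0.05. In tetYFH1 0 of 67 genes were called (smallest adjusted p 0.501), where 0.405% of all ORFs were. In W303 0 of 67 were called (adjusted p 0.999 for each) and 0.0% of all ORFs, and the spread of its single pair was borrowed from tetYFH1. At an unadjusted p under 0.05, 5 genes lay higher in tetYFH1, namely MRPL3, MRPL17, MRPL39, MRPS12 and RSM26, which is 7.46% of the 67 against 5.83% of all ORFs. On the lower side 0 genes reached that level in tetYFH1, against 3.63% of all ORFs. In W303 0 genes reached it on the higher side, against 0.988% of ORFs, and 0 on the lower side, against 1.64%. The share at the unadjusted level in tetYFH1 is thus near that of all ORFs. Of the 5 genes, all but MRPL17 had an exact whole number on B1, as did 23 of the 67 genes and 2603 of all ORFs. Whether arrays came from separate cultures is not given in the labels, and the spread used for the p-values may then be technical.

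**Figure D1:**
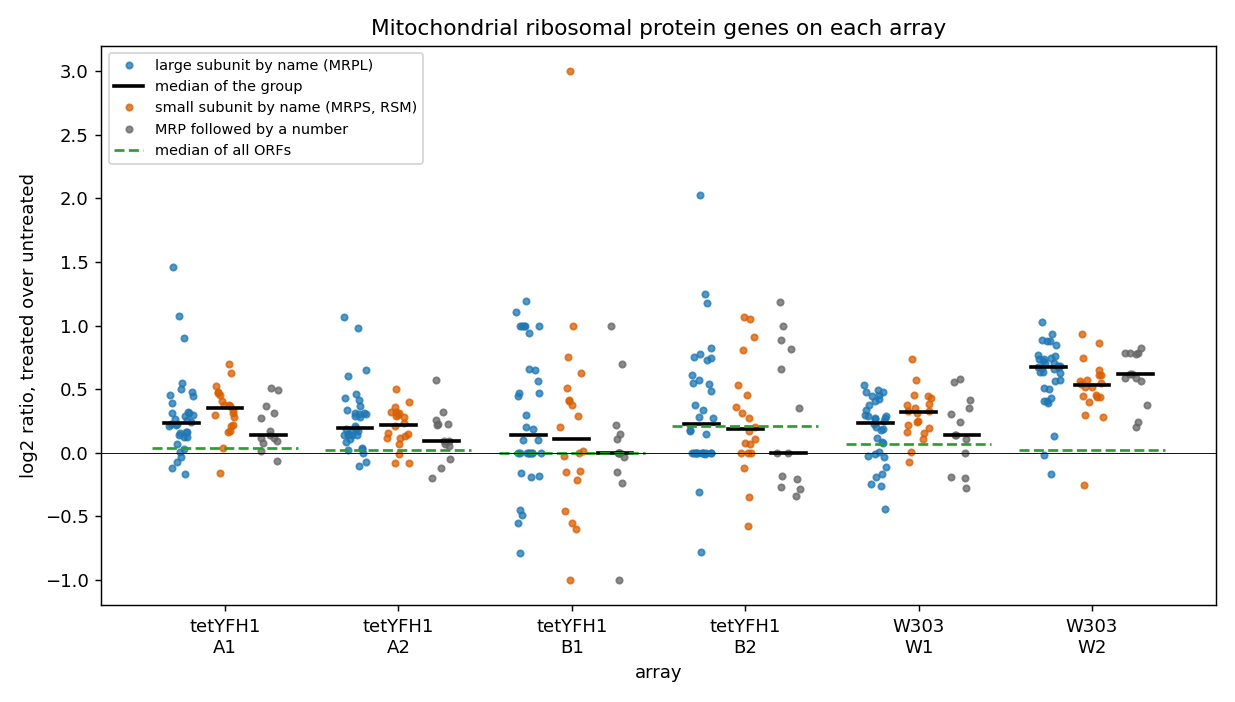
Log2 ratio of treated over untreated RNA (vertical axis) for the 67 mitochondrial ribosomal protein genes on the 6 arrays (horizontal axis), 1 point per gene, coloured by name; black marks give the median of each name group and dashed green lines that of all ORFs. On A1, A2, W1 and W2 all 3 group medians lie above the dashed line, on B1 that of the MRP genes and on B2 those of the MRP and small subunit genes do not, and the points spread most on B1 and B2.

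On single arrays the genes stood above the rest of the genome to unequal extents. In pair A their median was 0.26 on A1 and 0.19 on A2, where all ORFs had medians of 0.03 and 0.02. Of the 67, 61 were above 0 on A1 and 58 on A2, and 55 (82.1%) were above 0 on both, against 37.7% of all ORFs. In pair B their median was 0.10 on B1 and 0.18 on B2, where all ORFs had medians of 0.00 and 0.21. The genes therefore lay below the median of all ORFs on B2. Only 23 genes (34.3%) were above 0 on both arrays of pair B, against 25.3% of all ORFs, and 13 genes on B1 and 15 on B2 had a ratio of exactly 0. In pair W their median was 0.25 on W1 and 0.62 on W2, where all ORFs had medians of 0.07 and 0.02. Of the 67, 50 (74.6%) were above 0 on both W303 arrays, against 30.1% of all ORFs. No gene was below 0 on both.

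With the W303 ratios as labelled, the place of these genes in the whole distribution was highest on W2. Their median lay at the 93.0 percentile of all ORFs there, against 76.4 on A1, 72.4 on A2, 69.3 on B1, 68.5 on W1 and 48.3 on B2. With the W303 ratios turned it would be 31.5 on W1 and 7.03 on W2, the lowest of the 6 arrays. The genes also lay closer together than all ORFs on the arrays of pairs A and W. Their interquartile range was 0.267 on A1 and 0.223 on A2, against 0.404 and 0.370 for all ORFs. It was 0.295 on W1 and 0.286 on W2, against 0.543 and 0.550. On B1 it was wider than that of all ORFs, 0.630 against 0.547, and on B2 it was 0.637 against 0.662. The difference between W1 and W2 falls on the dye orientation, which cannot be told apart from the array; for all ORFs the 2 medians differed by under 0.05.

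Values of the genes were correlated within pair A, in large part through MRPL19 and MRPL13, and not within pairs B and W or between pairs A and B. Over the 67 genes Pearson's r was 0.54 between A1 and A2, near the 0.60 of all ORFs, and these are a dye swap of pair A. MRPL19, at 1.46 and 1.06 on A1 and A2, and MRPL13, at 0.90 and 0.98, lay far above the other genes and weigh heavily in this r. Its value without them was not computed. Between B1 and B2 r was −0.04, against 0.40 over all ORFs. Between W1 and W2 it was −0.02, against 0.24 over all ORFs. The means of pairs A and B had an r of −0.12 over the 67 genes and 0.31 over all ORFs. These correlations are across genes that share an array, and describe the data only. The order of single genes below is therefore given with every array's value.

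**Figure D2:**
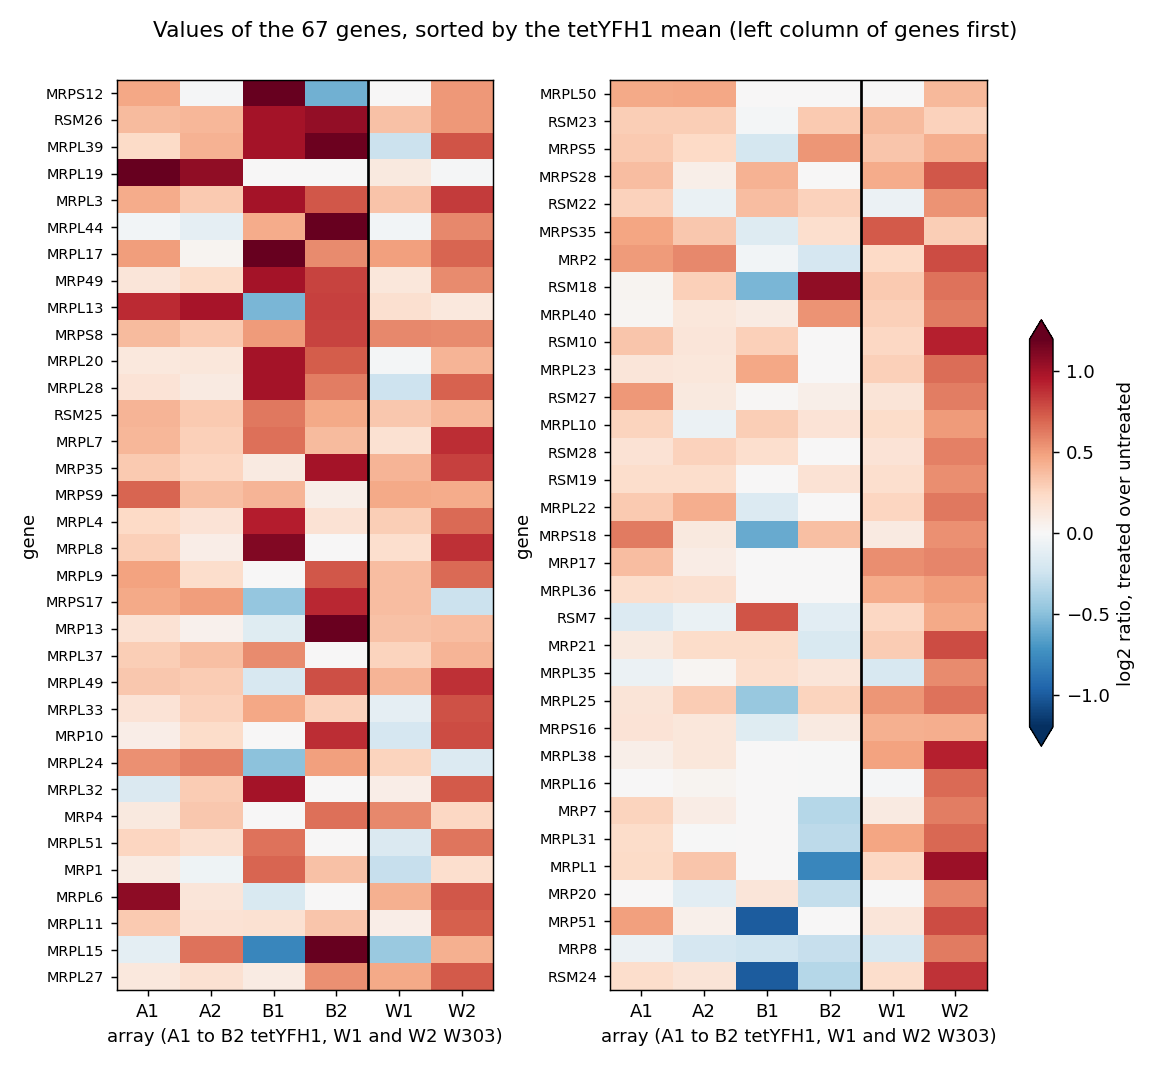
Log2 ratio of treated over untreated RNA of each of the 67 genes (rows, sorted by the tetYFH1 mean, highest at the top of the left panel) on the 6 arrays (columns); the colour scale ends at −1.2 and 1.2, and values beyond are drawn in its end colours. Columns A1 and A2 are above 0 for 61 and 58 of 67 genes and W2 for 64, and B1 and B2 hold the strongest colours of both signs as well as exact 0 values.

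Genes above 0 on all arrays of a strain were more frequent than among all ORFs, although single genes did not pass. On all 4 tetYFH1 arrays 18 genes (26.9%) were above 0, against 11.5% of all ORFs. On all 6 arrays 14 genes (20.9%) were, against 2.96%. They were the large subunit genes MRPL3, MRPL4, MRPL7, MRPL11, MRPL17, MRPL27 and MRPL40, the small subunit genes MRPS8, MRPS9, RSM25, RSM26 and RSM27, and MRP35 and MRP49. The steadiest of these over all arrays were in the small subunit. MRPS8, the counterpart of bacterial S8, had ratios of 0.38, 0.32, 0.51 and 0.81 on A1, A2, B1 and B2 and of 0.57 on both W303 arrays. RSM25 had 0.41, 0.31, 0.63 and 0.45 in tetYFH1 and 0.32 and 0.40 in W303. In both genes every array lay between 0.31 and 0.81. MRPL11, the counterpart of the stalk protein L10, stood lower, at 0.32, 0.17, 0.19 and 0.33 in tetYFH1, and at 0.08 and 0.72 in W303.

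Among large subunit genes the highest tetYFH1 means were those of MRPL39, MRPL19, MRPL3 and MRPL44. MRPL39, the counterpart of bacterial L33, had ratios of 0.23, 0.42, 1.00 and 1.18 on A1, A2, B1 and B2 and of −0.26 and 0.76 on W1 and W2. Its tetYFH1 mean was 0.71 ± 0.54 (SD, n = 2 pairs; adjusted p = 0.501, limma). The values of the tetYFH1 arrays were all above 0, higher in pair B, and the W303 arrays lay on both sides of 0. MRPL3, a protein with a ribonuclease III-like fold, had 0.45, 0.31, 1.00 and 0.74 in tetYFH1, and 0.34 and 0.84 in W303. Its tetYFH1 mean was 0.63 ± 0.35 (SD, n = 2 pairs; adjusted p = 0.501, limma), and the ranges of both strains overlapped. MRPL17 had 0.50, 0.04, 1.19 and 0.57 in tetYFH1, and 0.49 and 0.70 in W303.

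MRPL19 and MRPL44 owed their means to a single pair. MRPL19, the counterpart of L11 at the base of the stalk, had ratios of 1.46 and 1.06 on A1 and A2, exactly 0 on B1 and B2, and 0.12 and −0.02 on W1 and W2. It was thus high on the 2 arrays of pair A alone, and its mean of 0.63 ± 0.89 (SD, n = 2 pairs; adjusted p = 0.547, limma) was smaller than the spread between pairs. An ORF that overlaps it, YNL184C, had 1.2 and 1.21 on A1 and A2, 0.00 and 1.00 on B1 and B2, and 0.25 and −0.09 on W1 and W2. Whether the probes of the 2 ORFs separate their RNAs is not given in the sources used here. MRPL44 had −0.04 and −0.11 on A1 and A2, 0.44 and 2.03 on B1 and B2, and −0.04 and 0.57 on W1 and W2. A single array, B2, was far above the others. MRPL15, another protein with a ribonuclease III-like fold, was below 0 on the first array of every pair and above 0 on the second, with −0.12 and 0.65 in A, −0.79 and 1.25 in B, and −0.44 and 0.43 in W. Its sign followed the dye orientation, and its mean was 0.25 in tetYFH1 and −0.01 in W303.

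Among small subunit genes RSM26 and MRPS12 had the highest tetYFH1 means. RSM26, a protein related to superoxide dismutase, had ratios of 0.38, 0.40, 1.00 and 1.05 on A1, A2, B1 and B2 and of 0.35 and 0.52 on W1 and W2. Both arrays of each pair gave near values, pair B being above pair A, and the mean was 0.71 ± 0.45 (SD, n = 2 pairs; adjusted p = 0.501, limma). MRPS12, the counterpart of S12 in the decoding centre, had 0.47, −0.01, 3 and −0.58 in tetYFH1, and 0.00 and 0.52 in W303. Its mean of 0.72 ± 0.70 (SD, n = 2 pairs; adjusted p = 0.501, limma) was the highest of the 67, and rested on the value of B1. Without B1 the mean was −0.17. RSM19, its neighbour on the chromosome and the only pair of adjacent genes among the 67, had 0.21, 0.21, 0.00 and 0.17 in tetYFH1, and 0.20 and 0.56 in W303.

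The lowest tetYFH1 means belonged to RSM24, MRP8, MRP51 and MRP20, and none passed the test. RSM24 had ratios of 0.21 and 0.15 on A1 and A2 and of −1 and −0.35 on B1 and B2, while W1 and W2 had 0.22 and 0.87. Its mean was −0.24 ± 0.61 (SD, n = 2 pairs; adjusted p = 0.796, limma), and its sign in tetYFH1 differed between the pairs. MRP8 was the only gene below 0 on all 4 tetYFH1 arrays, with −0.07, −0.20, −0.24 and −0.27, and had −0.19 and 0.62 in W303. The gene table used here gives MRP8 no ribosomal protein name, and its product is not held to be part of the ribosome. RSM22, which is related to methyltransferases, also lacks such a name and had 0.28, −0.08, 0.37 and 0.27 in tetYFH1, and −0.07 and 0.54 in W303.

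The MRP genes had a tetYFH1 median of 0.21 and a W303 median of 0.36, and their subunits come from the ribosomal protein names of the gene table. In the large subunit, MRP35 had ratios of 0.31, 0.25, 0.11 and 1.00 in tetYFH1 and of 0.41 and 0.82 in W303. MRP49 had 0.14, 0.22, 1.00 and 0.81 in tetYFH1, and 0.14 and 0.57 in W303. MRP7, the counterpart of L27 near the peptidyl transferase centre, had 0.27, 0.09, 0.00 and −0.34 in tetYFH1, and 0.10 and 0.62 in W303. These 3 show the range within one subunit: MRP35 and MRP49 were above 0 on all 6 arrays, and MRP7 was not. MRP20, the counterpart of L23 at the tunnel exit, had 0.01, −0.12, 0.15 and −0.28 in tetYFH1, and −0.00 and 0.59 in W303, so that its tetYFH1 mean was −0.06.

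The MRP genes of the small subunit were as mixed. MRP51, the counterpart of S1, had ratios of 0.49, 0.07, −1 and 0.00 in tetYFH1 and of 0.14 and 0.78 in W303. MRP13 had 0.17, 0.05, −0.15 and 1.18 in tetYFH1, and 0.35 and 0.38 in W303. MRP10 had 0.08, 0.22, 0.00 and 0.88 in tetYFH1, and −0.20 and 0.78 in W303. In these 3 genes 1 array of pair B stood farthest from the other tetYFH1 arrays. MRP2, the counterpart of S14, had 0.51 and 0.57 on A1 and A2, −0.04 and −0.20 on B1 and B2, and 0.24 and 0.78 in W303. MRP17, the counterpart of S6, had 0.37 and 0.09 on A1 and A2, exactly 0 on B1 and B2, and 0.56 and 0.59 in W303. MRP4, the counterpart of S2, had 0.12, 0.32, 0.00 and 0.66 in tetYFH1, and 0.58 and 0.25 in W303. MRP4 overlaps another ORF, YHL005C, as MRPL51 does YPR099C, and MRP2 and MRP17 were higher on pair A than on pair B. MRP21, the counterpart of S21, had a tetYFH1 mean of 0.10 and a W303 mean of 0.55. MRP1, related like RSM26 to superoxide dismutase, had 0.10, −0.05, 0.70 and 0.35 in tetYFH1, and −0.28 and 0.20 in W303. Its W303 mean of −0.04 was the lowest of the 67.

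In W303 the highest means were those of MRPL38, MRPL49, MRPL1, MRP35, MRPL17 and MRPS28. MRPL38, the counterpart of L14 at the subunit interface, had ratios of 0.48 and 0.94 on W1 and W2, and of 0.07, 0.14, 0.00 and −0.00 in tetYFH1. Both W303 arrays were above all 4 tetYFH1 arrays, as they also were for several other genes, MRPS28 and MRP17 among them. MRPL1, the counterpart of L1 of the mobile stalk, had 0.25 and 1.03 on W1 and W2, and 0.23, 0.33, 0.00 and −0.78 in tetYFH1. MRPL49, the counterpart of L21, had 0.41 and 0.88 on W1 and W2, and 0.32, 0.30, −0.19 and 0.78 in tetYFH1. For MRPL1 and MRPL49 the groups overlapped. MRPS28, the counterpart of S15, had 0.44 and 0.75 on W1 and W2, and 0.37, 0.07, 0.41 and 0.00 in tetYFH1. Each of these genes was higher on W2 than on W1. Near the low end, MRPL24, the counterpart of L28, had 0.27 on W1 and −0.17 on W2, the reverse order. MRPL24, MRPL19 and MRPS17 were the 3 genes below 0 on W2.

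**Figure D3:**
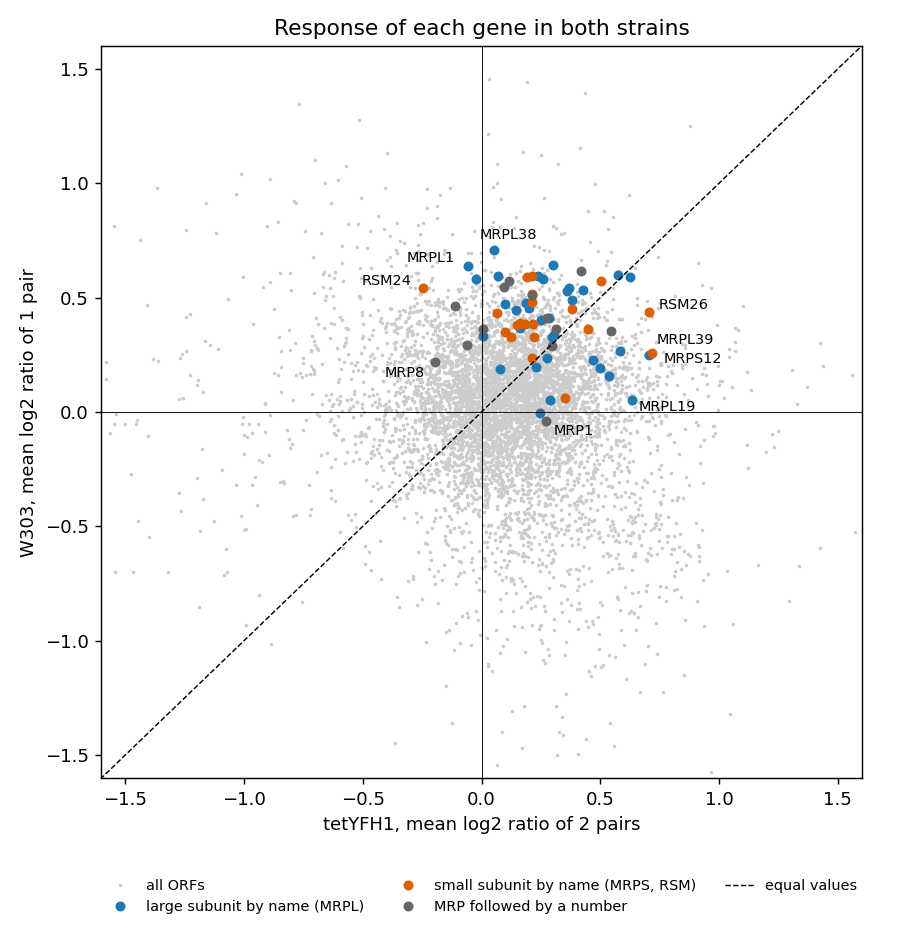
Mean log2 ratio of treated over untreated RNA in tetYFH1 (horizontal axis, mean of 2 pairs) and in W303 (vertical axis, 1 pair) for the 67 genes, coloured by name, over all ORFs in grey; both axes end at −1.6 and 1.6, which leaves out 47 of 6174 ORFs and none of the 67. Of the 67 genes, 49 lie above the dashed line of equal values, and 61 lie to the right of 0 and 65 above it.

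Between the strains, most of the 67 genes had the lower mean in tetYFH1, and the difference did not pass for any gene. The mean was higher in W303 than in tetYFH1 for 49 genes (73.1%), against 42.9% of all ORFs, with a median difference (tetYFH1 minus W303) of −0.17 for the genes and of 0.07 for all ORFs. This rests on the labelled direction of the W303 ratios: with these turned, the W303 mean was the higher for 0 genes, against 36.7% of all ORFs. limma called 0 genes (smallest adjusted p 0.924) and 0.0% of all ORFs, and 0 genes had an unadjusted p under 0.05, against 6.33% of all ORFs. The size of the median difference rested on W2. Without W1 it was −0.40, and without W2 it was −0.01. The lowest difference was that of RSM24, −0.78 (95% interval −1.86 to 0.29; adjusted p = 0.930, limma). MRPL1 followed with −0.69 (−1.70 to 0.31) and MRPL38 with −0.66 (−1.53 to 0.22). The highest differences were 0.58 for MRPL19 (−0.69 to 1.85), 0.46 for MRPS12 (−0.67 to 1.59) and 0.46 for MRPL39 (−0.58 to 1.49). The intervals of all 67 genes include 0. Those of 14 genes lie within a 2-fold difference in either direction, and those of the other 53, the 6 just named among them, reach beyond it, so that a 2-fold difference is not excluded for these.

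The medians of large and small subunit genes differed by under 0.15 on every array, and the sign of the difference was not constant. The 34 MRPL genes had a median of 0.28 in tetYFH1 and the 20 MRPS and RSM genes one of 0.21, a difference of 0.07. In W303 the medians were 0.43 and 0.39, a difference of 0.04. Of the MRPL genes 32 had a mean above 0 in tetYFH1 and 33 in W303, and of the MRPS and RSM genes 19 and 20. Array by array, the large subunit median minus that of the small subunit was −0.12 on A1, −0.03 on A2, 0.03 on B1, 0.04 on B2, −0.08 on W1 and 0.15 on W2. It was below 0 on both arrays of pair A and above 0 on both of pair B, and within pair W it turned with the array. The ranges overlapped throughout: in tetYFH1 the MRPL means ran from −0.06 to 0.71 and those of the small subunit from −0.24 to 0.72. The MRP genes were also placed by the names in the gene table. MRP8, and RSM22, which is counted among the 20 above, have no such name and were left out. The 38 large and 27 small subunit genes so defined differed by 0.07 in tetYFH1 and by −0.01 in W303. MRPS and RSM genes, both of the small subunit, had medians of 0.22 and 0.19 in tetYFH1 and of 0.43 and 0.38 in W303.

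The names in the gene table also tell which proteins have relatives elsewhere, a grouping that was added after the values had been seen and is given without a test. Of the 65 genes with such a name, 27 have relatives in all ribosomes, 14 in bacterial ribosomes and 24 in mitochondria alone. In tetYFH1 the medians of these groups were 0.21, 0.22 and 0.28, and in W303 they were 0.45, 0.47 and 0.36. The difference tetYFH1 minus W303 had medians of −0.20, −0.31 and −0.01. It was above 0 for 3 of the 27 universal genes, 3 of the 14 bacterial ones and 12 of the 24 that are found in mitochondria alone. Among all ORFs it was above 0 for 3527 of 6174, so none of the 3 groups exceeded the share of all ORFs. MRPL39 and MRPS12, at the upper end, are nonetheless a bacterial and a universal protein. The groups stood apart most on B2, with medians of 0.07, 0.00 and 0.50, whereas on A1, with 0.31, 0.28 and 0.19, the genes found in mitochondria alone had the lowest median. Pair A as a whole gave 0.24, 0.21 and 0.22.

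Other genes of mitochondrial gene expression were mostly nearer to 0, and 0 of the genes in these lists passed in either strain or in the difference. The 13 other ribosomal subunits, whose symbols have other forms, had a median of 0.18 in tetYFH1 and 0.20 in W303. Of these RTC6, the counterpart of L36, was highest in tetYFH1 with 1.34, 0.20, 1.00 and 1.07, and had 0.20 and −0.29 in W303 (tetYFH1 mean 0.90 ± 0.19, SD, n = 2 pairs; adjusted p = 0.303, limma). EHD3 was lowest with a mean of −0.05. The 8 translation factors had medians of 0.26 and 0.37 in tetYFH1 and W303, the nearest to the 67 genes. Of these TUF1, the elongation factor that brings aminoacyl-tRNA to the ribosome, was highest with 0.60, 0.58, 0.49 and 1.00 in tetYFH1, and 0.23 and 0.59 in W303. Its mean in tetYFH1 was 0.67 ± 0.11 (SD, n = 2 pairs; adjusted p = 0.487, limma), and all 6 arrays were above 0. AIM23, an initiation factor, was lowest in tetYFH1 with a mean of −0.03, and had 0.50 in W303.

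The 13 mitochondrial aminoacyl-tRNA synthetases had medians of 0.09 in tetYFH1 and 0.18 in W303, with MSY1 highest at 0.50 and DIA4 lowest at −0.26 in tetYFH1. The 13 translational activators, each of which acts on single mitochondrial mRNAs, had medians of 0.17 and 0.13, with PET111 highest at 0.42 and ATP22 lowest at −0.29. The 8 genes of transcription, ribosome assembly and membrane insertion had medians of 0.16 and 0.03, with GEP3 highest at 0.34. The gene farthest from 0 among these was MTF1, a factor needed by the mitochondrial RNA polymerase, and it was on the lower side. It had −0.98, −1.23, −1 and −1.30 in tetYFH1, and −0.39 and −0.56 in W303. The mean in tetYFH1 was −1.13 ± 0.03 (SD, n = 2 pairs; adjusted p = 0.127, limma), and it was below 0 on all 6 arrays.

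Genes for the respiratory chain and for the cytosolic ribosome had W303 medians below 0, the former through W1 alone, unlike the 67 genes. Of the 34 listed genes of the respiratory chain and ATP synthase, 33 were found, with medians of 0.27 in tetYFH1 and −0.13 in W303. They were near the 67 genes in tetYFH1, and on W1, with a median of −0.33, they were on the other side of 0. On W2 their median was 0.11, with 26 of 33 genes above 0, so that the W303 median below 0 rests on W1. QCR9 was highest in tetYFH1 at 0.70, and COX9 lowest at −0.04. The 133 cytosolic ribosomal protein genes, a list by name that includes RPP1, which encodes a ribonuclease P subunit, had medians of 0.63 in tetYFH1 and −0.49 in W303. RPS22A was highest in tetYFH1 at 1.16 and RPS14A lowest at −0.07. The median was 0.24, 0.17, 1.12 and 0.97 on A1, A2, B1 and B2 and −0.74 and −0.23 on W1 and W2. Cytosolic and mitochondrial ribosomal protein genes thus had near medians in pair A, while in pair B the cytosolic genes were far higher and in pair W far lower than the mitochondrial ones. Differences between lists were not tested.

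**Figure D4:**
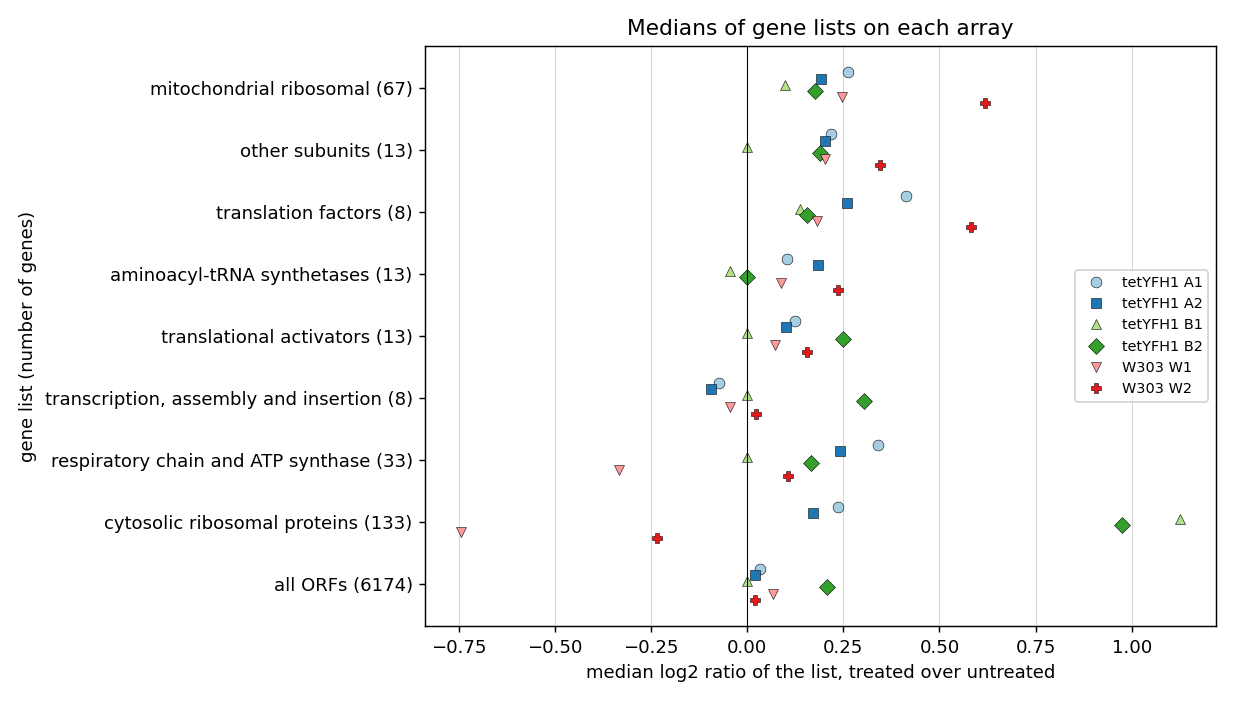
Median log2 ratio of treated over untreated RNA (horizontal axis), 1 symbol for each of the 6 arrays, for the 67 mitochondrial ribosomal protein genes, the other lists of mitochondrial gene expression, the respiratory chain, the cytosolic ribosomal proteins and all ORFs (vertical axis). The medians of the 67 genes stay between 0.10 and 0.62, whereas those of the cytosolic ribosomal protein genes run from −0.74 on W1 to 1.12 on B1.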

How the data were processed

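The values deposited by the authors are log2 ratios for 6174 ORFs on each of 6 two-colour arrays, with none missing, and the labels' descriptions give each ratio as treated over untreated. Scanning, background correction, dye normalization, spot averaging, filters and probes were not stated in the labels or headers used. Precision is limited by how few arrays there are. The deposited values were used unchanged.

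ORFs were matched to a RefSeq gene table of assembly R64 (5675 matched, 499 not), which gave symbols, synonyms and neighbours. The members and the lists were chosen with earlier results of these data known. Both dye orientations of a pair were averaged into 1 replicate. limma 3.58.1 in R 4.3.3 was fitted to the 3 pair means over all ORFs, with 1 coefficient per strain, empirical Bayes moderation, and two-sided p-values adjusted by the method of Benjamini and Hochberg over 6174 ORFs. An adjusted p under 0.05 was called. The fit was tested on simulated data. Passing required only that changes far larger than those of the members be recovered. It does not show whether changes as small as theirs would be called.

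Genes were named by rule: members called; the 6 highest and 4 lowest means in each strain; the 3 highest and 3 lowest differences; the 3 widest ranges in tetYFH1; all MRP genes; the highest and lowest of each other list. MRPS8, RSM25, MRPL11, RSM19, RSM22, MRPS17 and MRPL13 were added to these with their values known. So were MRPL4, MRPL7, MRPL27, MRPL40, MRPS9 and RSM27, listed as above 0 on all 6 arrays. MRPL51 was named for the ORF that overlaps it. The alternatives were arrays as replicates (with the Exp number as a term, or the pair as a random block), centring, scaling, omission of ORFs whose value on B1 or B2 is a whole number, robust moderation, another threshold, turned W303 ratios, other memberships, and omission of each array or pair.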

Additional observations from a re-analysis of the deposited data

Results flagged for a closer look

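Of 30 values tested for an array far from the others, the 4 tetYFH1 arrays of MRPL24, which encodes the counterpart of L28, met the criterion (Dixon's 95% critical value for 4 samples). Its ratio was −0.49 on B1, against 0.55, 0.60 and 0.49 on A1, A2 and B2, so the gap to the nearest array was 0.897 of the range. Chance marks about 1 in 20 such groups.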

How the results depend on the processing

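Counts of genes called stayed at 0 in tetYFH1, in W303 and in the difference of strains under all alternatives except the omission of pair B with the remaining arrays entered singly. That gave 2 genes in tetYFH1 (MRPL13 at 0.94, adjusted p = 0.00409, and MRPL19 at 1.26, adjusted p = 1.3e-04, limma), 1 in W303 (MRPL38 at 0.71, adjusted p = 0.0491) and 1 in the difference (MRPL19 at 1.21, adjusted p = 0.0206), and the cause was not tested. With pair B omitted each strain had only the 2 arrays of 1 pair, so the p-values of that fit rest on the spread within pairs. The fit with the Exp number as a replicate block called 0 genes in each comparison. Over all ORFs, where 25, 0 and 0 were called in tetYFH1, W303 and the difference, arrays entered singly gave 86, 2 and 8, the block 59, 0 and 4, the pair as a random block 99, 3 and 10, no pair A 106, 1 and 100, and no pair B 300, 281 and 140. In tetYFH1 centring gave 0, scaling 1, omission of whole numbers 3, no pair W 41, an adjusted p under 0.1 39, and omission of single arrays 0 to 25. Without W1 3 were called in W303, and with W303 turned 3 in the difference. With W303 ratios turned, the W303 median was −0.40 and the median difference 0.66, by construction. The median difference ran from −0.40 without W1 to −0.014 without W2. The difference between large and small subunit medians in tetYFH1 was −0.031 without pair B. Among genes that passed no test, signs turned without pair B for MRP51 (0.28), MRPL44 (−0.071), RSM24 (0.18) and the difference of MRPS12 (−0.033), and without pair A for the difference of MRPL19 (−0.052). Leaving out 1 array at a time gave tetYFH1 means from −0.17 to 0.046 for MRP20, −0.36 to 0.14 for MRP51 and −0.17 to 1.61 for MRPS12, W303 values from −0.28 to 0.20 for MRP1, −0.44 to 0.43 for MRPL15, −0.016 to 0.12 for MRPL19 and −0.17 to 0.27 for MRPL24, and differences from −0.052 to 0.96 for MRPL39 and −0.43 to 1.35 for MRPS12. Of the other values, 365 for single genes kept direction and side of the threshold. The other medians stayed within a margin. For the strains this was the SD between arrays of the same median, 0.068 in tetYFH1 and 0.26 in W303. For large minus small it was likewise 0.073 in tetYFH1 and 0.16 in W303. For the difference it was 0.19, a standard error combined from the SDs of both strains. W303 has only 2 arrays, so leaving 1 out could hardly pass its SD, and staying within it does not show stability. The margin is also wide enough that large minus small in W303, 0.042, turned its sign in 4 of 9 alternatives. These gave −0.084 without W2, −0.042 with W303 turned, −0.0077 with means and −0.0070 by the gene table.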
